A study of Rattus norvegicus with 12 samples.

Results

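The antioxidant defence genes are the enzymes that remove superoxide, hydrogen peroxide and lipid peroxides, together with the transcription factor that controls many of them and several of its target genes. The 10 genes described here, *Sod1*, *Sod2*, *Cat*, *Gpx1*, *Gpx4*, *Nfe2l2*, *Hmox1*, *Nqo1*, *Gclc* and *Txnrd1*, were taken by symbol from the table of 17337 genes, and all 10 were present. RNA sequencing was performed on the striatum of 12 wild-type adult male Sprague–Dawley rats, with 1 library per rat. Per the labels, every rat had self-administered methamphetamine (MA) for 16 days, and no group labelled as drug-free was used here. In the MA12 group (n = 4, rats 21, 31, 4N and 7N) the striatum was taken 12 h after the last session, and in the MA24 group (n = 4, rats 9N, 14N, 15N and 16N) 24 h after it. The clock time of collection is not given for either group. In MA24 against MA12 it cannot be told apart from the length of abstinence. The third group (n = 4, rats 9, 11, 12 and 13) carries the label non-addicted after the same 16 days. The sources used here give neither the criterion for that label nor the time of collection, and the paper describes no group of that name. Because the labels say that these rats took the drug, they are not treated here as a drug-free control.

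Superoxide, formed mainly by leakage from the mitochondrial respiratory chain and by oxidases, is converted to hydrogen peroxide by the superoxide dismutases, and hydrogen peroxide is removed by catalase, the glutathione peroxidases and the peroxiredoxins. The transcription factor NRF2, product of *Nfe2l2*, is held in the cytoplasm and degraded through KEAP1, and on oxidative or electrophilic stress it accumulates and binds antioxidant response elements near genes such as *Hmox1*, *Nqo1*, *Gclc* and *Txnrd1*. MA releases dopamine from striatal terminals, and the oxidation of dopamine yields quinones and reactive oxygen species, which is why these genes are commonly measured in this tissue.

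The libraries held 17908962 to 23850284 counts. Levels are given as CPM, the share of a library's counts that fell on a gene, scaled with TMM factors over all 12 libraries. This allows a gene to be compared between rats but not with another gene of different length. Genes of striatal projection neurons were abundant in every library (10 of 10 listed genes in the table, summed level 13980 to 18465 CPM), whereas 4 listed genes of cortical projection neurons summed to 2.69 to 10.2 CPM. The rat numbers ended in N for 0 of 4 non-addicted, 2 of 4 MA12 and 4 of 4 MA24 rats. What the letter marks is not stated, and in the comparison of non-addicted with MA24 rats it cannot be told apart from the group. All 12 rats carry a single batch label. Nothing else in the labels ties the rats of a group together, so the p-values measure the spread between these rats only.

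Of the 10 antioxidant genes, only *Cat* passed the threshold (adjusted p below 0.05 with a fold change of at least 1.5) in any of the 3 comparisons, being lower in MA24 than in MA12. Of the 10754 genes tested in that comparison, 2.45% passed, 1.72% being lower in MA24. *Hmox1* was higher in MA24 than in MA12 with no overlap between the groups but missed the adjusted threshold. The other 8 genes differed by at most 1.24-fold in each comparison, and none of them passed.

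**Figure D1:**
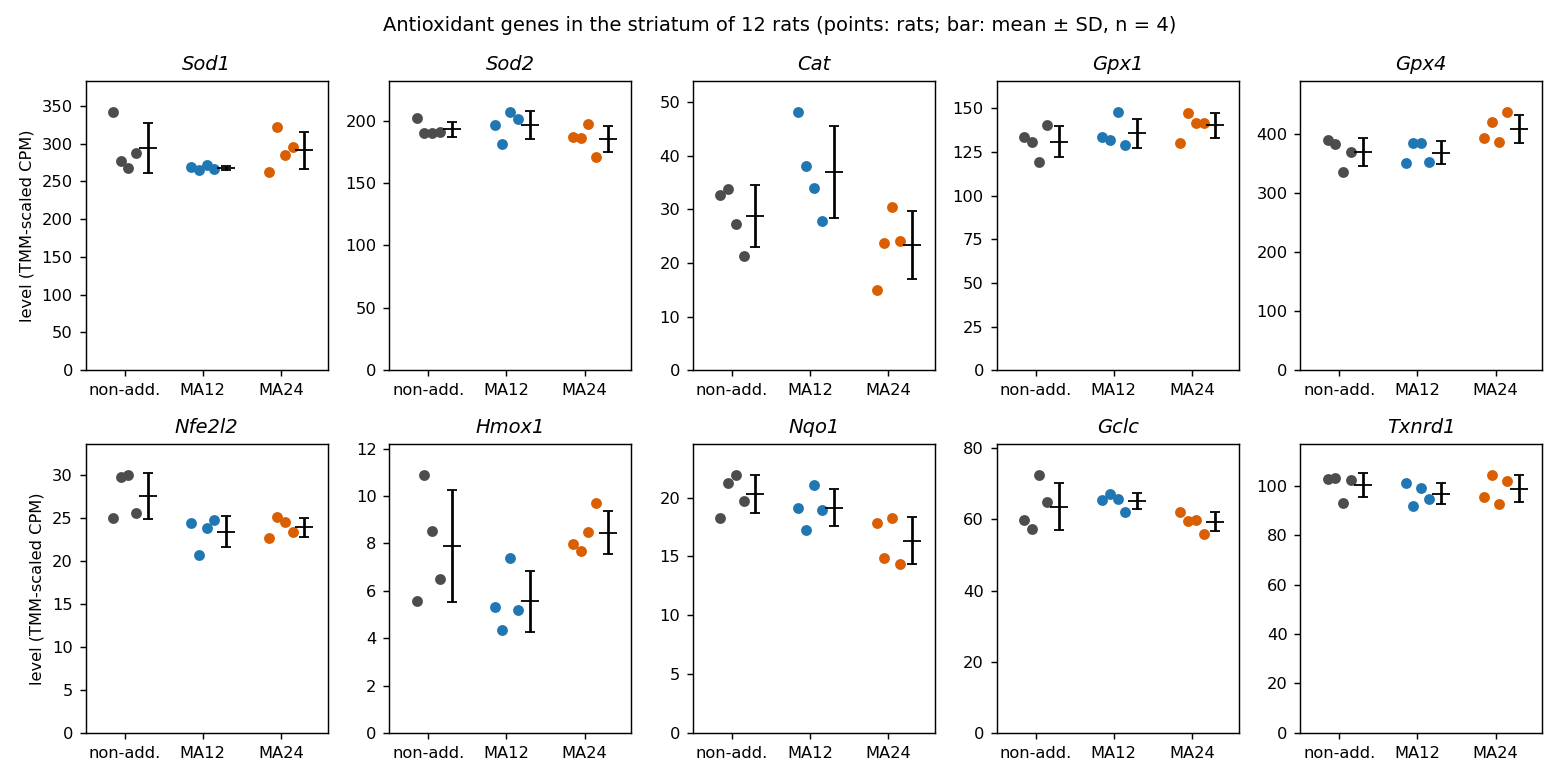
Level of each antioxidant gene in the 12 rats, by group (x axis) in TMM-scaled CPM (y axis, from 0), with each point a rat and each bar the mean ± SD (n = 4). *Cat* ran from 15.0 to 48.1 CPM and *Hmox1* from 4.35 to 10.9 CPM, whereas the points of *Txnrd1* and *Sod2* lie close together in all 3 groups.

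*Cat* encodes catalase, the mainly peroxisomal enzyme that splits hydrogen peroxide into water and oxygen. Its level was 48.1 CPM in MA12 rat 21, 38.0 in rat 31, 34.0 in rat 4N and 27.8 in rat 7N. In MA24 it was 15.0 CPM in rat 9N, 23.7 in rat 14N, 30.4 in rat 15N and 24.0 in rat 16N. Thus 3 of 4 MA24 rats lay below every MA12 rat, while rat 15N lay above MA12 rat 7N, so that the groups overlapped. The mean fell from 37.0 ± 8.53 CPM (SD, n = 4) in MA12 to 23.3 ± 6.31 CPM (SD, n = 4) in MA24, a log2 fold change of -0.67 (SE 0.18, 95% confidence interval -1.04 to -0.30) or 1.59-fold, with an edgeR adjusted p of 0.0329. The counts behind these levels ran from 349 to 1144 per library, so the spread between rats rather than counting limited the precision.

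The *Cat* call was lost on leaving out some single rats and in both fits that used the kind of rat number. Without MA12 rat 21, the highest of the 12, the log2 fold change was -0.51 (edgeR adjusted p = 0.130), and without MA24 rat 9N, the lowest, it was -0.51 (adjusted p = 0.0518). It was also lost without MA12 rat 31 (adjusted p = 0.0573), MA24 rat 14N (0.0509) or MA24 rat 16N (0.0679), at log2 fold changes of -0.66, -0.68 and -0.69. Both MA12 rats without the letter N had more *Cat* than both MA12 rats with it. Among the rats with N alone (2 MA12, 4 MA24) the log2 fold change was -0.40 (adjusted p = 0.323), and with the kind of number as a covariate it was -0.42 (adjusted p = 0.319). The count passing over all genes fell as well, from 264 as reported to 116 among the rats with N and 47 with the covariate. All 17 alternatives used these same MA12 and MA24 rats or some of them, so they are not independent tests of the *Cat* direction. *Cat* was lower in MA24 under all 17 alternatives run, and its call held in 9 of them.

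The non-addicted rats had intermediate *Cat* levels, at 32.6 CPM in rat 9, 33.8 in rat 11, 27.3 in rat 12 and 21.2 in rat 13. These overlapped both other groups. The mean of 28.8 ± 5.76 CPM (SD, n = 4) gave a log2 fold change of -0.37 against MA12 (SE 0.16, interval -0.70 to -0.04, unadjusted p = 0.0291 and adjusted p = 0.335 in edgeR). Against MA24 it was 0.30 (SE 0.18, interval -0.07 to 0.67, adjusted p = 0.364). The order was therefore MA12, non-addicted, MA24, and neither step between neighbours passed the adjusted threshold, although the interval for the step from MA12 to the non-addicted rats lay below 0. The 2 comparisons with the non-addicted rats share those libraries, and each also shares a group with the comparison of MA24 and MA12.

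**Figure D2:**
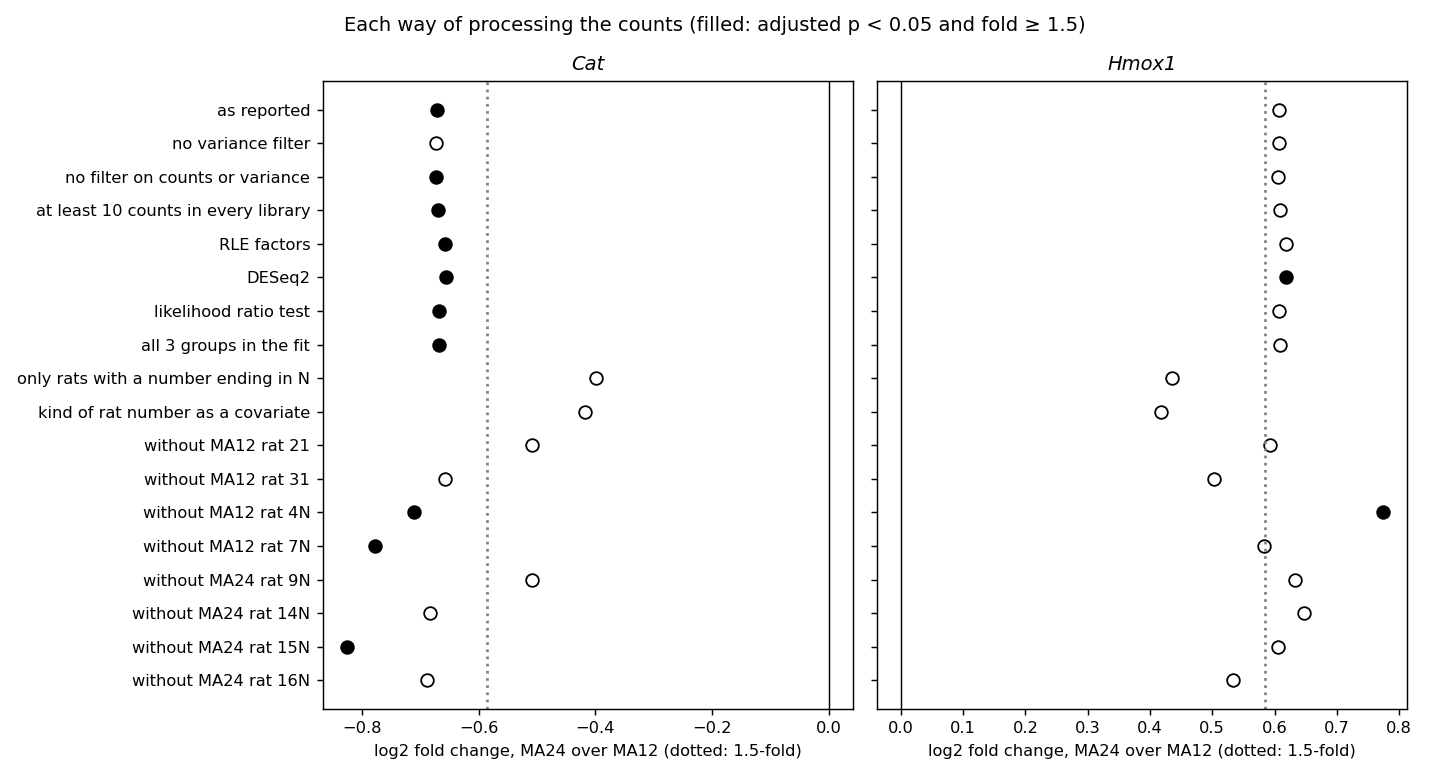
Log2 fold change of *Cat* and *Hmox1*, MA24 over MA12 (x axis), as reported and under each of 17 other ways of processing the counts or choosing the rats (y axis), with filled points where the adjusted p was below 0.05 and the fold at least 1.5. *Cat* stayed below 0 throughout, from -0.83 to -0.40, and *Hmox1* stayed above 0, from 0.42 to 0.77.

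In whole striatum, fewer cells of a type and less RNA per cell cannot be told apart. The summed markers of 9 cell types overlapped between MA24 and MA12. The widest oligodendrocyte range was in MA12, at 12148 to 21702 CPM against 18109 to 21240 CPM in MA24 (6 of 6 genes). Over the 12 libraries the log2 level of *Cat* had a Pearson correlation of -0.65 with that of the projection neuron list, -0.58 with astrocytes and -0.47 with oligodendrocytes. All are shares of the same libraries, and the part of cell makeup in the *Cat* difference was not tested. The positive correlations were 0.37 with mural cells and fibroblasts, 0.37 with ependymal cells and choroid plexus and 0.30 with red blood cells. Red blood cells carry much catalase. Their 6 genes in the table, with *Hba2* at 0 counts in every library, summed to 119 to 199 CPM in MA12 and 111 to 176 CPM in MA24.

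The genes whose log2 levels followed *Cat* most closely over the 12 libraries, among 10755 compared, were *Pdcd4* (Pearson r = 0.87), *Setd8* (0.87) and *Casp8ap2* (0.86). With so many genes and 12 rats, high values arise among the top ranks, and they are given as a description. The same measure gave *Fam134c* (0.88), *Pex6* (0.86) and *Mcf2l* (0.84) for *Hmox1*. For *Nqo1* it gave *Spag9* (0.93), *Hsp90b1* (0.90) and *Htr5a* (0.89).

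The promoter of *Cat* is shown because *Cat* was the only member that passed the threshold and the only one of those examined whose promoter held no GC box. Promoters, running from 250 bases before to 50 bases after each start, were taken from RefSeq on GRCr8, a later assembly than the one used for counting. They were found for 9 of the 10 genes, with none for *Hmox1*. The GC box GGGCGG, searched on both strands, lay in 8 of these 9 genes, that is in 10 of their 12 promoters, and in 33.1% of all 33469 promoters, but not in that of *Cat*. The CCAAT box, searched likewise, lay in 5 of the 9 (*Cat*, *Gpx4*, *Nqo1*, *Sod1* and *Txnrd1*), in 6 of the 12 promoters and in 37.5% of all. The 250 bases before the *Cat* start (chr3:110329527-110329776, minus strand) hold 4 of them, whose first bases lie 245, 195, 70 and 40 bases before the start, the one at 195 on the opposite strand. They are in capitals, in the 5′ to 3′ direction of the gene.
Cat: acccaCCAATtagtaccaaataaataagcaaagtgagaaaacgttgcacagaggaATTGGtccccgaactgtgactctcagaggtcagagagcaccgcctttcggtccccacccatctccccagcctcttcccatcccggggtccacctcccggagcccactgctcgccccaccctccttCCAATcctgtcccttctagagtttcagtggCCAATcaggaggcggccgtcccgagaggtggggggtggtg

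*Nfe2l2* and its target genes were examined next. *Nfe2l2* encodes NRF2, which is regulated largely through protein stability. Its level was 20.7 to 24.7 CPM in MA12 and 22.6 to 25.1 CPM in MA24, which overlapped (log2 fold change 0.03, interval -0.18 to 0.24). In the non-addicted rats it was 24.97, 29.7, 29.98 and 25.5 CPM, all above every MA12 rat. The log2 fold change against MA12 was 0.23 (SE 0.11, interval -0.00 to 0.47, edgeR adjusted p = 0.409), and against MA24, where the groups overlapped, it was 0.20 (adjusted p = 0.344). Separation of the groups without overlap was found for 6.65% of all genes in the comparison of non-addicted and MA12 rats, and *Nfe2l2* was the only 1 of the 10 members with it.

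*Hmox1* encodes heme oxygenase 1, which degrades heme to biliverdin, iron and carbon monoxide and is an inducible NRF2 target. Its level was 5.30, 4.35, 7.38 and 5.19 CPM in MA12 rats 21, 31, 4N and 7N. In MA24 rats 9N, 14N, 15N and 16N it was 7.96, 7.69, 8.48 and 9.72 CPM. Every MA24 rat lay above every MA12 rat, rat 4N being close to the lowest of MA24. The mean was 5.55 ± 1.29 CPM (SD, n = 4) in MA12 and 8.46 ± 0.90 CPM (SD, n = 4) in MA24, a log2 fold change of 0.61 (SE 0.20, interval 0.19 to 1.02, unadjusted p = 0.00647 and adjusted p = 0.0764 in edgeR). *Hmox1* had the lowest counts of the 10 genes, 92 to 221 per library. It passed the threshold with DESeq2 (log2 fold change 0.62, adjusted p = 0.0333) and in edgeR without MA12 rat 4N (0.77, adjusted p = 0.0423), but not among the rats with N alone (0.43, adjusted p = 0.437).

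The non-addicted rats did not form a tight group for *Hmox1*. Their levels were 5.58, 10.9, 8.53 and 6.5 CPM, which spanned most of the range of both other groups. The log2 fold change was 0.50 against MA12 (SE 0.23, interval 0.02 to 0.98, edgeR adjusted p = 0.385) and -0.11 against MA24 (SE 0.20, interval -0.53 to 0.31, adjusted p = 0.807). The summed markers of microglia and macrophages, cells that express *Hmox1* on activation, were 274 to 387 CPM in non-addicted, 363 to 415 CPM in MA12 and 360 to 480 CPM in MA24 rats (8 of 8 genes in the table). Their correlation with *Hmox1* over the 12 libraries was 0.50, and their part in its level was not tested.

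*Nqo1* encodes the quinone reductase that converts quinones, including those of dopamine, to hydroquinones. Its level was 18.3 to 21.9 CPM in the non-addicted rats and 14.4 to 18.3 CPM in MA24, where the lowest of the former lay barely above the highest of the latter. The log2 fold change was 0.31 (SE 0.13, interval 0.04 to 0.58, unadjusted p = 0.0272 and adjusted p = 0.235 in edgeR). Groups without overlap made up 9.41% of all genes in this comparison, and *Nqo1* was the only 1 of the 10. The MA12 level of 17.3 to 21.1 CPM overlapped both, with a log2 fold change of -0.23 for MA24 over MA12 (interval -0.50 to 0.05, adjusted p = 0.299). In the comparison of non-addicted with MA24 rats, 2 of 9 marker lists also did not overlap. Endothelial markers summed to 390 to 554 against 606 to 660 CPM (7 of 8 genes in the table) and oligodendrocyte markers to 11668 to 17286 against 18109 to 21240 CPM, and their part in the *Nqo1* values was not tested.

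*Gclc* encodes the catalytic subunit of glutamate–cysteine ligase, the rate-limiting enzyme of glutathione synthesis. All 4 MA12 rats (65.5, 67.3, 65.8 and 62.1 CPM) lay above all 4 MA24 rats (62.1, 59.7, 59.9 and 55.9 CPM), though MA12 rat 7N and MA24 rat 9N were nearly equal. This gave a log2 fold change of -0.13 (SE 0.07, interval -0.29 to 0.02, edgeR adjusted p = 0.275). The non-addicted rats, at 57.4 to 72.6 CPM, spanned both groups. *Txnrd1*, the cytosolic selenoenzyme that reduces thioredoxin, was the steadiest of the 10 genes, with means of 100.5 ± 4.86, 96.7 ± 4.29 and 98.7 ± 5.44 CPM (SD, n = 4 each) in non-addicted, MA12 and MA24 rats. Its interval for MA24 over MA12 was -0.12 to 0.18 on the log2 scale.

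The members also differed in whether their promoters carry the core of the antioxidant response element. TGACNNNGC, where N is any base, was searched on both strands and found in 3 of the 9 genes with a promoter, 3 of their 12 promoters, and in 12.1% of all promoters. These were *Nfe2l2* itself, *Sod2* and 1 of 2 promoters of *Txnrd1*. The windows are shown 5′ to 3′ in the direction of the gene with the match in capitals. All 3 genes stayed within 1.5-fold in every comparison, but so did *Sod1*, *Gpx1*, *Gpx4*, *Nqo1* and *Gclc*, which had no match. All 3 windows lie on the minus strand of GRCr8. The *Sod2* match (chr1:50050185-50050213) begins 35 bases before the start and the *Txnrd1* match (chr7:22755964-22755992) 78 bases before it, both on the opposite strand. The *Nfe2l2* match (chr3:81028950-81028971) begins at base 39 of the transcript. A match in this window is a description and no evidence of binding, and elements farther from the start were not searched.
Sod2: ggcgctgccgGCAGGGTCAgcgcctagct
Txnrd1: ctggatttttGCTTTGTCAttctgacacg
Nfe2l2: gactagccatTGACGCCGCctc

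The superoxide dismutases showed no difference between groups beyond the spread of the rats. *Sod1*, the copper–zinc enzyme of the cytosol, was 268 to 342 CPM in non-addicted, 266 to 272 CPM in MA12 and 262 to 322 CPM in MA24 rats, so that MA12 was the tightest group and lay within the range of MA24. Its log2 fold change was 0.12 for MA24 over MA12 (SE 0.07, interval -0.04 to 0.28, edgeR adjusted p = 0.357). *Sod2*, the manganese enzyme of mitochondria, was 190 to 202 CPM in non-addicted, 181 to 207 CPM in MA12 and 171 to 197 CPM in MA24 rats. Its log2 fold changes lay between -0.08 and 0.06 over the 3 comparisons.

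Of the glutathione peroxidases, both selenoenzymes, *Gpx4* reduces lipid hydroperoxides in membranes and *Gpx1* acts on hydrogen peroxide. *Gpx4* was 351, 385, 386 and 354 CPM in MA12 and 393, 421, 387 and 438 CPM in MA24. The groups did not overlap, but their nearest rats, 4N and 15N, were nearly equal. The difference was 0.15 on the log2 scale (SE 0.09, interval -0.04 to 0.34, edgeR adjusted p = 0.323). Non-addicted rats, at 337 to 391 CPM, had a log2 fold change of -0.00 against MA12. *Gpx1* was 119 to 140, 129 to 148 and 130 to 148 CPM in non-addicted, MA12 and MA24 rats, with log2 fold changes from -0.10 to 0.05 over the 3 comparisons.

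**Figure D3:**
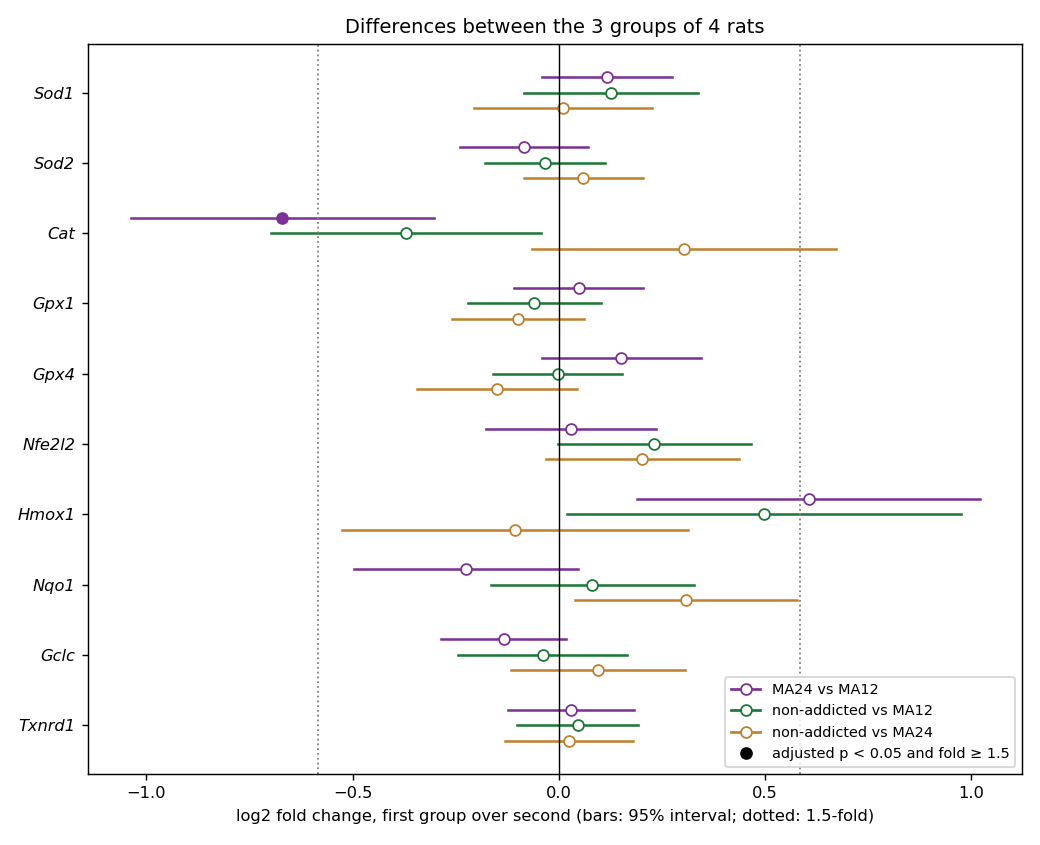
Log2 fold change of each antioxidant gene (y axis) in the 3 comparisons, first group over second (x axis), with bars for the 95% confidence interval, dotted lines at 1.5-fold and a filled point where the threshold was passed. Only *Cat* in MA24 over MA12 is filled, at -0.67, and most intervals lie between the dotted lines.

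Taken as a list, the 10 genes showed no common direction. In MA24 over MA12, 6 were higher and 4 lower, with a median log2 fold change of 0.03 against -0.00 over all genes with a mean count above 4. In non-addicted over MA12 rats 5 were higher and 5 lower (median 0.02 against -0.01), and in non-addicted over MA24 rats 7 were higher and 3 lower (median 0.04 against 0.00). The interval lay wholly within 1.5-fold for 8, 8 and 9 of the 10 genes in these 3 comparisons, so larger differences are outside the 95% intervals for most members.

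The counts of members passing the tests were set beside those of all genes. All 10 had a mean count above 4, but a filter on low variance removed 6 of them from the comparison of MA24 and MA12, 4 from non-addicted against MA12 and 3 from non-addicted against MA24. These have values from the same fit without that filter. In this fit 2 of 10 members (*Cat* and *Hmox1*) had an unadjusted p below 0.05 in MA24 against MA12, where 22.9% of all genes did. In non-addicted against MA12 rats 0 of 10 members passed in edgeR, where 0.251% of all genes tested passed, and 0 with DESeq2. In the fit without the variance filter 2 members (*Cat* and *Nfe2l2*) had an unadjusted edgeR p below 0.05, beside 12.0% of all genes. In the fit with it these were *Cat* (0.0291) and *Hmox1* (0.0420), *Nfe2l2* being at 0.0510, beside 12.3% of all genes tested. In non-addicted against MA24 rats 0 of 10 passed in edgeR, beside 0.456% of all genes tested, and 0 with DESeq2. Without the variance filter 1 member (*Nqo1*) had an unadjusted edgeR p below 0.05, beside 17.6% of all genes. In MA24 against MA12 the groups did not overlap for 3 members (*Gpx4*, *Hmox1* and *Gclc*), beside 14.4% of all genes.

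The variation between rats, regardless of group, divided the list. The coefficient of variation over the 12 rats was 29.0% for *Cat* and 27.1% for *Hmox1*, against a median of 13.7% over 12649 genes. *Cat* was 3.20-fold higher in the highest rat than in the lowest, and *Hmox1* 2.51-fold. Because low counts vary more, each gene was set beside genes within 2-fold of its own mean count. Of these, 97.6% varied less than *Cat* and 80.0% less than *Hmox1*. At the other end, 3.54% varied less than *Txnrd1* (coefficient of variation 4.76%, highest rat 1.14-fold above the lowest) and 8.62% less than *Sod2* (5.18%). The remaining 6 genes had coefficients of variation of 6.22% (*Gpx1*) to 12.6% (*Nqo1*), and 17.1% to 46.0% of genes of like count varied less.

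**Figure D4:**
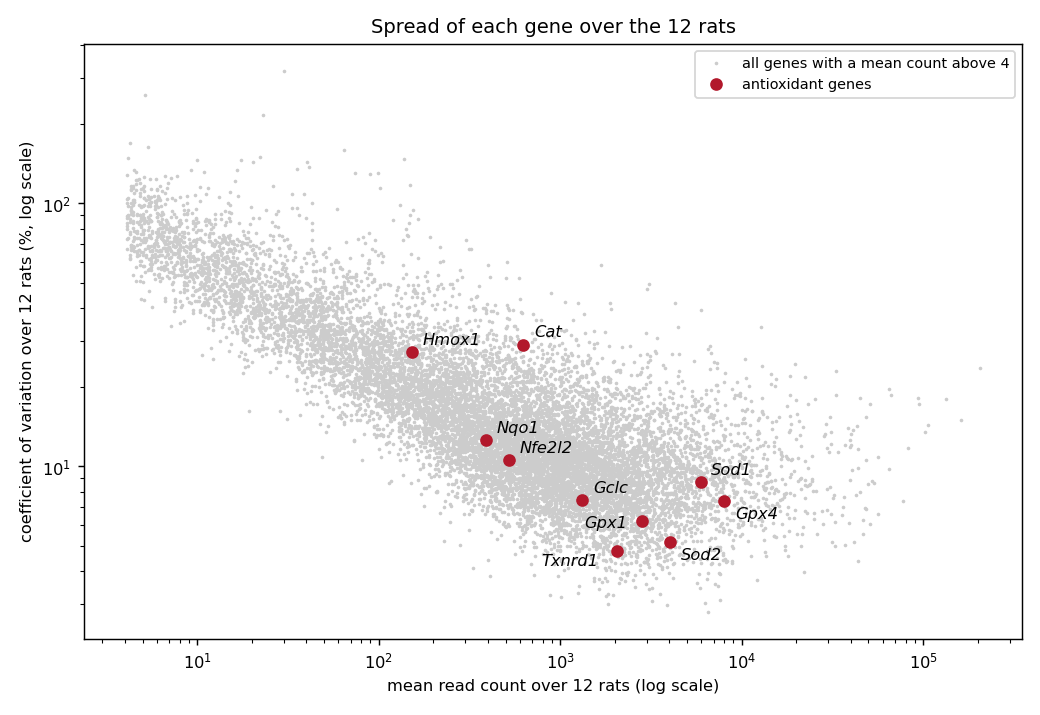
Coefficient of variation over the 12 rats (y axis, percent, log scale) against mean read count (x axis, log scale) for every gene with a mean count above 4 (grey) and the 10 antioxidant genes (red). *Cat*, at 29.0%, lies near the upper edge of genes with its count, and *Txnrd1*, at 4.76%, near the lower edge.

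The members did not rise and fall together over the rats. The Pearson correlation of log2 levels over the 12 libraries was -0.38 between *Cat* and *Hmox1*, and -0.79 between *Gpx4* and *Nqo1*, the strongest of the 45 pairs. *Gpx4* and *Gclc* had a correlation of -0.74, and *Gpx1* and *Gpx4* of 0.67. *Nfe2l2* had a correlation of 0.54 with *Hmox1*, 0.55 with *Nqo1*, 0.06 with *Gclc* and 0.24 with *Txnrd1*. These values describe levels scaled within the same libraries and include the differences between groups.

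A wider list of 86 other genes of glutathione, thioredoxin, peroxiredoxin, metallothionein, iron and NRF2 biology was examined in the same fits, of which 81 were in the table and 80 had a mean count above 4. In MA24 against MA12, 0 of the 63 tested passed in edgeR, beside 2.45% of all genes tested, and 0 with DESeq2. An unadjusted edgeR p below 0.05 was found for 14 (10 higher and 4 lower). This was 22.2% of the list beside 23.6% of all genes tested, and the 80 genes had a median log2 fold change of 0.07. The smallest p-values belonged to *Sesn3* and *Ftl1*. *Sesn3*, a stress-inducible sestrin, was 104, 105, 100 and 76.8 CPM in MA12 and 80.8, 51.6, 70.3 and 63.2 CPM in MA24. The groups overlapped through rats 7N and 9N, and the log2 fold change of -0.53 (edgeR adjusted p = 0.0236) was below the fold limit. *Ftl1*, the ferritin light chain that stores iron, had a log2 fold change of 0.35 (adjusted p = 0.0615).

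In non-addicted against MA12 rats, 1 of 67 genes of the wider list passed, beside 0.251% of all genes tested. It was *Mt1a*, a metallothionein that binds zinc and copper. Its level was 39.6, 30.5, 30.4 and 26.6 CPM in the non-addicted rats and 17.8, 23.8, 15.6 and 18.4 CPM in MA12. These groups did not overlap, which held for 3 of the 80 listed genes with a mean count above 4 and for 6.65% of all genes. The MA24 rats, at 21.5 to 25.3 CPM, lay below every non-addicted rat and overlapped MA12 through its rat 31. The log2 fold change of non-addicted over MA12 was 0.75 (SE 0.14, edgeR adjusted p = 0.0383), but the call was lost in 9 of 17 alternatives, for example with an adjusted p of 0.0887 without the variance filter. Unadjusted p-values below 0.05 were found for 5 of 67 genes, 7.46% beside 12.3% of all. The next smallest p-values belonged to *Gpx3*, the secreted glutathione peroxidase (log2 fold change 0.43, adjusted p = 0.298), and *Sesn1*, another sestrin (0.23, adjusted p = 0.330). The mural cell and fibroblast markers, 6 of 6 in the table with *Col1a2* at 0 counts in every library, did not overlap in this comparison. They summed to 69.3 to 92.0 CPM in non-addicted and 99.8 to 146 CPM in MA12 rats. Their part in the *Mt1a* difference was not tested.

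In non-addicted against MA24 rats, 0 of 64 genes of the wider list passed in edgeR, beside 0.456% of all genes tested, and 0 with DESeq2. An unadjusted edgeR p below 0.05 was found for 12 (18.8%, beside 17.5% of all). The 3 smallest p-values belonged to *Ftl1*, *Mt1a* and *Sod3*, the extracellular superoxide dismutase, none of which overlapped between the groups. Groups without overlap were found for 11 of the 80 listed genes, beside 9.41% of all genes. For *Sod3*, non-addicted rat 13 (36.48 CPM) and MA24 rat 15N (36.54 CPM) were nearly equal. Non-addicted rats had less *Ftl1* (log2 fold change -0.34, edgeR adjusted p = 0.112) and *Sod3* (-0.33, adjusted p = 0.143) and more *Mt1a* (0.42, adjusted p = 0.123) in every rat, without passing the threshold. Over the 80 genes the median log2 fold change was -0.04 in this comparison and 0.00 in non-addicted against MA12 rats.

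Genes that produce oxidants were examined as the other side of the balance: 20 genes of the NADPH oxidases, nitric oxide synthases, monoamine oxidases, cyclooxygenases and xanthine dehydrogenase, all in the table. In MA24 against MA12, 1 of 17 tested passed, where 2.45% of all genes tested passed, 1.72% being lower in MA24. It was *Nos1*, the neuronal nitric oxide synthase, which marks a class of striatal interneurons. Its level was 27.7, 33.5, 41.4 and 25.9 CPM in MA12 and 28.9, 10.4, 16.8 and 19.6 CPM in MA24, so that only MA24 rat 9N lay within the MA12 range. The log2 fold change was -0.76 (SE 0.21, edgeR adjusted p = 0.0434), and the call was lost in 12 of 17 alternatives. No other of the 17 had an unadjusted p below 0.05, beside 23.6% of all genes tested. *Maoa*, the mitochondrial enzyme that oxidizes dopamine and yields hydrogen peroxide, had a log2 fold change of -0.20 (adjusted p = 0.224), and *Nos3*, the endothelial synthase, 0.22 (adjusted p = 0.335).

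In non-addicted against MA12 rats 0 of 16 oxidant genes passed in edgeR, beside 0.251% of all genes tested. Against MA24 0 of 17 did, beside 0.456%, and with DESeq2 0 passed in each. An unadjusted edgeR p below 0.05 was found for 2 genes in each comparison. These were 12.5% against MA12, beside 12.3% of all genes tested, and 11.8% against MA24, beside 17.5%. In non-addicted against MA12 rats the smallest p-values belonged to *Nos1* (log2 fold change -0.51, edgeR adjusted p = 0.334) and *Nos3* (-0.30, adjusted p = 0.401). *Nos1* was 10.7 CPM in non-addicted rat 9, and 26.2, 26.8 and 27.1 CPM in rats 11, 12 and 13, which lay within the MA12 range. In non-addicted against MA24 rats they belonged to *Nos3* (-0.52, adjusted p = 0.0784), *Duox1*, an oxidase with 2 to 30 counts (-1.78, adjusted p = 0.252), and *Maob*, the other monoamine oxidase (0.15, adjusted p = 0.396). *Nos3* was lower in every non-addicted than in every MA24 rat, and the endothelial markers given above were too. It was the only 1 of these 17 genes without overlap, beside 9.41% of all genes.

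**Figure D5:**
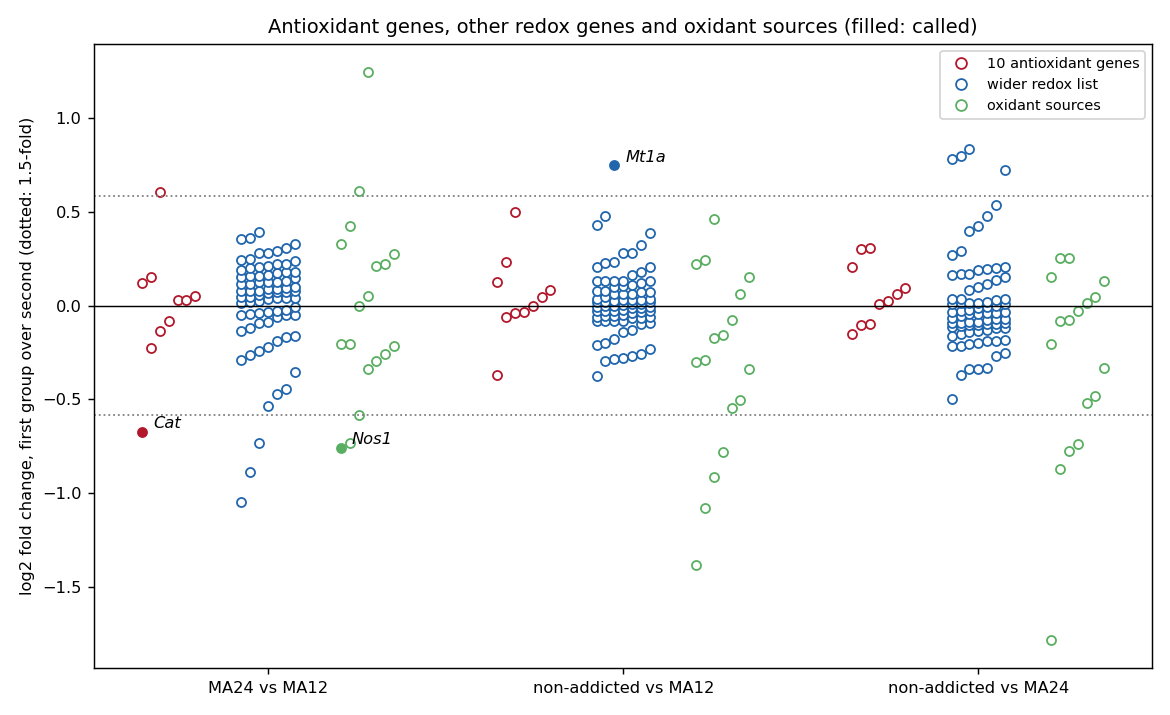
Log2 fold change, first group over second (y axis), of the 10 antioxidant genes, the wider redox list and the oxidant sources in the 3 comparisons (x axis), each point a gene with a mean count above 4, filled where the threshold was passed, with dotted lines at 1.5-fold. *Cat* and *Nos1* are filled in MA24 over MA12 and *Mt1a* in non-addicted over MA12, and the widest points belong to genes with few counts.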

How the data were processed

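The authors deposited raw read counts per gene. Per the labels, the tools used on reads from poly(A)-selected TruSeq libraries were Cutadapt 1.18, STAR 2.7.0e (genome rn6), featureCounts and HTSeq 0.12.4. The strand setting and the treatment of reads shared by genes are not given in the sources used here. Each pair of groups was fitted alone (8 libraries) with edgeR 4.0.16 in R 4.3.3: genes with a mean count above 4 were kept, those in the bottom 15% by variance (log2 CPM, prior count 2) were removed, TMM factors were applied, and the quasi-likelihood test was followed by Benjamini–Hochberg adjustment over all genes tested. This procedure was tried on a single set of simulated counts for MA24 against MA12, with 200 genes changed 2-fold and the rest unchanged. It made 186 calls there, and 21 of them were false, a larger share than the 0.05 set by the threshold. Leaving out the variance filter gave 167 calls, 6 of them false. How many genes differ in the rats, and by how much, is not known, so the false share there may be another. The calls of *Cat*, *Nos1* and *Mt1a* in the rats were all lost when the variance filter alone was left out. That of *Cat* held with no filter on either counts or variance. DESeq2 1.42.0 was an alternative. Replicate pairs within groups differed beyond counting noise (chi-square per degree of freedom 9.72 to 28.0 over 18 pairs), so no library was counted as a repeat. The members, gene lists and tests were chosen with earlier results of these data known. Named genes were all 10 members, any listed gene called, the 3 with the smallest p per list and comparison, and, for the 3 members with the widest range, the 3 genes most correlated with each. Some genes that this rule names are not reported here. Groups of 4 rats limit the precision, and SEs of members ran from 0.07 to 0.23 on the log2 scale.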

Additional observations from a re-analysis of the deposited data

Results flagged for a closer look

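In 30 sets of 4 rats (10 genes in 3 groups), 2 had a rat far from the other 3, where chance gives 1.5. *Sod2* was 202 CPM in non-addicted rat 9 and 190 to 191 CPM in the other non-addicted rats, a gap of 0.926 of the group's range. *Txnrd1* was 93.2 CPM in non-addicted rat 12 and 103 CPM in the others, a gap of 0.934 of the range. Both concern genes with little variation over the 12 rats.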

How the results depend on the processing

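The count of antioxidant genes passing in MA24 against MA12 was 1, but 0 without the variance filter, 0 among rats with N alone, 0 with the kind of number as a covariate, 2 with DESeq2 (*Cat* and *Hmox1*) and 0 to 2 on leaving out each rat. The log2 fold change of *Cat* was -0.67 without the variance filter (edgeR adjusted p = 0.0637), -0.40 among rats with N, -0.42 with the covariate and -0.83 to -0.51 on leaving out each rat. For the wider list in MA24 against MA12 the count was 0, but 1 at any fold (*Sesn3*) and 0 to 1 on leaving out each rat. In non-addicted against MA12 it was 1, but 0 without the variance filter, 0 without any filter, 0 among rats without N, 0 with the covariate and 0 to 1 on leaving out each rat. Differences near 0 changed sign. *Nfe2l2* in MA24 over MA12 was -0.020 among rats with N, -0.022 with the covariate and -0.024 to 0.057 on leaving out each rat. In non-addicted over MA12, *Sod2* was 0.036 among rats without N, 0.023 with the covariate and -0.072 to 0.0042 on leaving out each rat, and *Gclc* -0.11 to 0.0066. There *Gpx4* was 0.0046 with RLE factors, 0.0045 with DESeq2, 0.0059 with all 3 groups in the fit, 0.013 among rats without N, 0.00017 with the covariate and -0.024 to 0.041 on leaving out each rat. In non-addicted over MA24, leaving out each rat gave -0.065 to 0.059 for *Sod1*, -0.30 to 0.026 for *Hmox1* and -0.0057 to 0.060 for *Txnrd1*. The cause of these changes was not tested. The alternatives for *Nos1*, *Sesn3* and *Mt1a* were added after their values were seen. The counts over all genes, on which the background shares rest, moved too. In MA24 against MA12 they were 264 as reported, 195 without the variance filter, 116 among rats with N, 47 with the covariate, 316 with DESeq2 and 129 (without MA24 rat 14N) to 436 (without MA24 rat 9N) on leaving out each rat. In non-addicted against MA12 they were 27, 5 without the variance filter, 75 with DESeq2 and 8 (without non-addicted rat 12) to 93 (without MA12 rat 7N). In non-addicted against MA24 they were 49, 0 without the variance filter, 126 with DESeq2 and 0 (without non-addicted rat 12) to 187 (without non-addicted rat 13). No paired analysis was possible because the groups share no rat numbers.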
